A study of Mus musculus with 48 samples.

Results

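The Slc25 family comprises the carrier proteins that move metabolites across the inner mitochondrial membrane, and its messenger RNAs were followed in 4 RNA fractions of mouse cerebral cortex at 3 ages. The members were all protein-coding genes whose symbol starts with Slc25a in the GENCODE M21 mouse annotation and whose Ensembl identifier is listed in the deposited count table. This rule used no measured value and found 47 genes among the 48526 in the table, and 1 pseudogene with a similar symbol was left out. The 48 libraries came from 12 untreated wild-type male C57BL/6JRj mice, 4 mice at each age, numbered 187 to 190 at 3 weeks (3w), 191 to 194 at 5 months (5m) and 195 to 198 at 18 months (18m). The middle group is called 5 months in the protocol and 6 months in the titles of its samples, and both names refer to the same mice. From each mouse, total cortical homogenate (TH) and synaptosomes (SYN), pinched-off nerve terminals collected from a sucrose gradient, were each sequenced as lysate (input) and as the pellet under a sucrose cushion (SC). The pellet holds ribosomes with the RNA bound to them, together with any other particle dense enough to sediment, and it was taken as ribosome-associated RNA. The gradient enriches nerve terminals by density and not by a cell type label, so a synaptosome fraction can also hold membranes of other cell types. The mice shared the same strain, sex and lack of treatment. For its mice the paper names the Leibniz Institute on Aging in Jena and Janvier as sources, without assigning them to ages.

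Most carriers are built from repeats of a pair of membrane-spanning helices, and each repeat carries a conserved signature that lets the transporter open on alternate sides of the membrane. They supply mitochondria with ADP and phosphate and export ATP, exchange glutamate, aspartate and malate for the redox shuttle, and import cofactors, iron and amino acids. In brain they are known for energy supply at synapses, for glutamate oxidation in neurons and astrocytes, and for buffering calcium with adenine nucleotides. Not every member sits in that membrane: Slc25a17 is a peroxisomal carrier, and Slc25a46 lies in the outer membrane, where it takes part in mitochondrial dynamics.

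The coding sequence of the signature is shown for the genes on which the results turn, to let the relation between these genes be seen. Each line holds 30 bases of coding sequence read 5′ to 3′ on the gene's own strand from the GRCm38 genome, and the capitals mark the 18 bases that encode a proline, any residue, an aspartate or glutamate, 2 of any residue, and a lysine or arginine. The first match in each coding sequence is shown. It lies at coding bases 76 to 105 in Slc25a4 and 775 to 804 of 999 in Slc25a44, so the lines need not show the same repeat.
Slc25a4, chr8:46210818-46210847, minus strand: gtcgccCCGATCGAGAGGGTCAAActgctg
Slc25a5, chrX:36795806-36795835, plus strand: gtagcaCCCATCGAGAGGGTCAAGctgctg
Slc25a18, chr6:120786089-120786118, plus strand: gtgtttCCCATTGACCTTGCCAAGacccga
Slc25a22, chr7:141433941-141433970, minus strand: gtgttcCCCATCGACCTGGCTAAGacacgg
Slc25a14, chrX:48630891-48630920, plus strand: actttcCCTGTGGATCTTACTAAAacacgg
Slc25a24, chr3:109156970-109156999, plus strand: accgctCCTTTGGATCGCCTCAAGgtcatg
Slc25a34, chr4:141623556-141623585, minus strand: accaacCCCCTGGAAGTGGTAAAGacccgt
Slc25a44, chr3:88415994-88416023, minus strand: accaatCCCATGGATGTCATCAGAacccgt
Over the whole coding sequence, Slc25a4 and Slc25a5 were 77.4% identical, Slc25a22 and Slc25a18 71.3%, and Slc25a34 and its nearest relative Slc25a35 64.9%. These stretches differ enough for most reads to be assigned, but not for every gene. Of all windows as long as a read along the longest coding transcript, 11.3% of those of Slc25a5 also occurred in 4 other genes, so its counts are uncertain by an amount that depends on how shared reads were handled. The share was 0 for Slc25a4. The counting ignored strand, and 31.3% of the exonic length of Slc25a35 lies over the oppositely oriented Rangrf, so reads that lie within the overlap cannot be told apart, as with Slc25a33 and the antisense gene Gm13068 over 14.9% of its exons.

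The libraries held between 1780267 and 18590040 counts, and Slc25 genes took between 0.150% and 0.250% of them. Depth moved with age in the SC_TH libraries, with medians of 4448523 counts at 3w, 8643431 at 5m and 12328632 at 18m. The SC_SYN libraries held 5415274 to 6132944 counts at 3w and 8328535 to 14557582 at 5m, without overlap. At 18m they held 5341263 to 18590040. Of the 47 genes, 35 had enough counts to be tested in each of the 4 fractions, 6 in some fractions and 6 in none. The untested genes were Slc25a21, Slc25a31, Slc25a41, Slc25a43, Slc25a48 and Slc25a54, with 158, 28, 13, 92, 126 and 1 counts summed over the 48 libraries, which include the testis-type ADP/ATP carrier Slc25a31. The tested genes numbered 41 in input_TH, 40 in SC_TH, 35 in input_SYN and 38 in SC_SYN. Cell type markers were checked beside the carriers. The summed level of 10 neuronal markers was 6784 to 8537 CPM (counts scaled to a library's total with its normalization factor) in input_TH and 14860 to 17040 CPM in input_SYN, and that of 10 astrocyte markers was 3969 to 5607 and 13250 to 16930 CPM. Those of 10 microglia markers were 208.4 to 248.5 CPM in input_TH and 366 to 760.9 CPM in input_SYN, while 10 endothelial markers fell from 206.8 to 340.5 CPM in input_TH to 17.12 to 30.57 CPM in input_SYN. Such sums are led by their most abundant genes. By the tests given below, single neuronal markers split in direction in the input, whereas all 10 astrocyte markers were higher in SYN. In bulk RNA of this kind, fewer cells of a type and less RNA per cell cannot be told apart.

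A few carriers took a large share of the family's RNA. Slc25a3, Slc25a4, Slc25a5 and Slc25a23 together made up 47.1% ± 0.739 (SD, n = 4) of its summed level per kilobase of exon in input_TH at 3w and 56.9% ± 1.90 in SC_SYN at 18m. Per kilobase of exon (RPKM), Slc25a4, the ADP/ATP carrier of heart and brain, had the highest mean level in each fraction, with 96.6 RPKM in input_TH and 166.4 RPKM in SC_SYN (n = 12 mice). With its relative Slc25a5 it made up 28.7% ± 0.888 (SD, n = 4) of the family's summed RPKM in input_TH at 3w and 41.3% ± 1.00 in SC_TH at 18m. Next in input_TH came Slc25a23, a calcium-regulated carrier of ATP-Mg and phosphate, at 45.1 ± 4.64 RPKM (SD, n = 12), the phosphate carrier Slc25a3 at 38.5 ± 1.68 RPKM and Slc25a5 at 37.2 RPKM. Slc25a3 and Slc25a5 are neighbours in this order that do not differ beyond their spread. The length used was that of all annotated exons, 2353 bases for Slc25a4 and 5550 for Slc25a3. The transcripts with the longest coding sequence have 1925 and 1341 bases. The order of these genes and the shares of the family therefore depend on the length chosen, and the lead of Slc25a4 holds for this length only. The order changed among the leaders other than Slc25a4 and also below them. Slc25a23 ranked 2 in input_TH and 4 in SC_TH and SC_SYN, where Slc25a5 ranked 2. Slc25a18, a glutamate carrier, ranked 8 of the family in input_TH with 13.8 RPKM and 5 in SC_SYN with 53.9 RPKM. Slc25a44, a carrier of branched-chain amino acids, held 21.4 ± 1.74 RPKM in input_TH and 50.7 ± 4.66 RPKM in input_SYN, and Slc25a14, an uncoupling protein-like carrier, 9.50 and 31.0 RPKM. Slc25a44 ranked 3 in input_SYN, above Slc25a3 and Slc25a5.

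**Figure D1:**
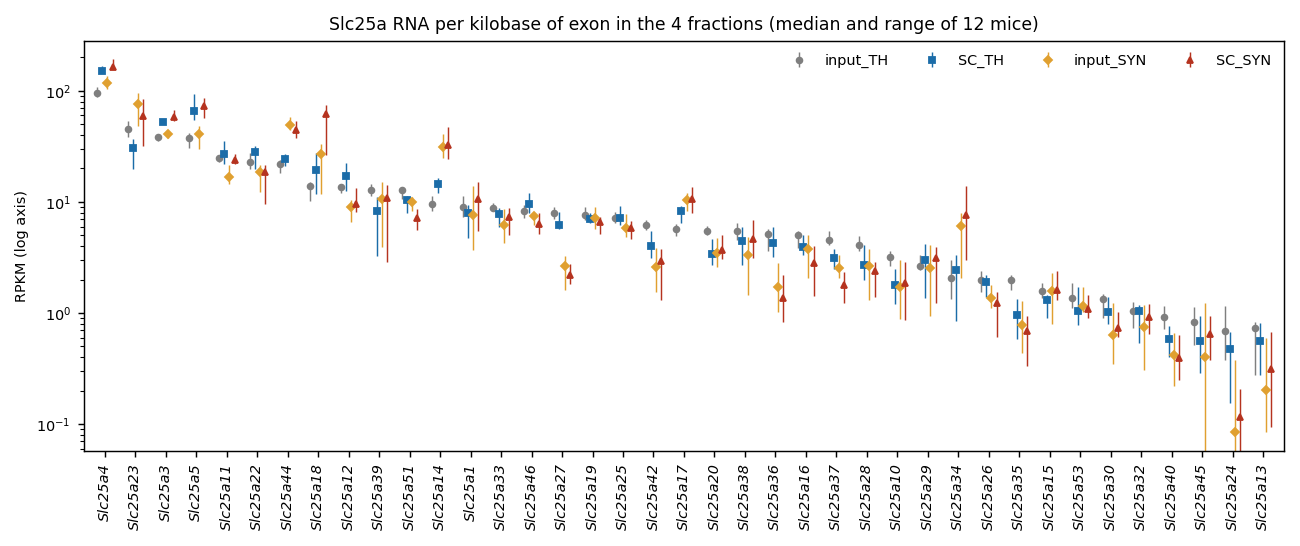
Level of each Slc25a gene with a mean of at least 0.5 RPKM in input_TH, in the 4 fractions (log axis, RPKM); symbols are the median of 12 mice and lines the lowest and highest mouse, and a line that reaches the bottom has a mouse at 0. Per kilobase of all annotated exons, Slc25a4 leads in every fraction. Slc25a18, Slc25a14, Slc25a44 and Slc25a34 lie higher in both SYN fractions than in both TH fractions.

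The first comparison asked which carrier RNAs differ between synaptosomes and the homogenate they were taken from. In the input, 31 of 40 tested carriers differed with the mean over the 3 ages at an adjusted p under 0.05 (edgeR's quasi-likelihood test with Benjamini-Hochberg adjustment over all genes tested), 9 higher and 22 lower in SYN. In the ribosome pellet 30 of 40 differed, 12 higher and 18 lower in SYN. Most genes differed between these compartments, 84.1% of 17860 in the input (36.7% higher and 47.4% lower) and 79.2% of 16630 in the pellet (36.9% higher and 42.3% lower), so these counts are near the background. The median log2 fold change of the carriers was −0.26 in the input and −0.029 in the pellet, against −0.17 and −0.080 over all genes tested. Of the 40 genes, 5 in the input (Slc25a13, Slc25a24, Slc25a35, Slc25a45 and Slc25a47) and 2 in the pellet (Slc25a13 and Slc25a24) passed the filter on low counts only through TH, so those that were low in SYN could hardly fail to differ. Of the 35 and 38 genes that passed it in both fractions, 9 were higher and 18 lower in the input and 12 higher and 16 lower in the pellet, with median log2 fold changes of −0.19 and 0.039. What set carriers apart from each other was the size and sign of the difference, given here by role. The scale of SYN against TH rests on the normalization, which used TMM (trimmed mean of M values) factors. With library size in their place the median log2 fold change over all genes moved to −0.77 in the input and −0.63 in the pellet, and the carriers split into 6 higher and 33 lower in the input and 5 higher and 29 lower in the pellet. Over all genes that scaling called 3985 higher and 11972 lower in place of 6548 and 8464 in the input, and 3667 and 10617 in place of 6142 and 7034 in the pellet. Once a trend over GC content and length had been removed, the median over all genes was 0.031 in the input, and the carriers split into 13 higher and 17 lower there and 13 higher and 15 lower in the pellet.

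The carriers with the largest rise in the SYN pellet were Slc25a34, Slc25a18, Slc25a14, Slc25a23 and Slc25a44, and in the input Slc25a14, Slc25a34, Slc25a44, Slc25a18 and Slc25a17, followed by Slc25a23. Slc25a34, a member whose substrate is not firmly known, had 3.59, 4.12, 4.43 and 4.65 CPM in input_TH at 3w and 5.54, 7.72, 7.99 and 9.51 CPM in input_SYN of the same mice. At 5m the values were 5.25, 5.32, 5.82 and 6.00 CPM in input_TH against 13.1, 17.6, 20.5 and 21.2 CPM in input_SYN. At 18m they were 6.15, 6.72, 7.37 and 8.05 CPM against 15.5, 16.6, 18.0 and 21.3 CPM. The compartments did not overlap at any age. The pellet showed the same order, with 2.26, 3.59, 4.33 and 4.78 CPM in SC_TH at 3w against 8.09, 12.0, 12.4 and 19.0 CPM in SC_SYN. At 5m, SC_TH held 6.60, 6.90, 7.17 and 7.95 CPM and SC_SYN 21.2, 25.2, 25.6 and 37.5 CPM, and at 18m 6.01, 6.30, 8.20 and 8.82 CPM against 19.8, 19.9, 24.4 and 24.6 CPM. Over the 3 ages Slc25a34 was 2.75-fold higher in SYN in the input (log2 1.46 ± 0.10, SE, adjusted p = 5.2e-14) and 3.51-fold in the pellet (1.81 ± 0.13, adjusted p = 1.3e-12), higher in 12 of 12 mice in both.

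Slc25a14, known as UCP5 or brain mitochondrial carrier protein, spanned 19.7 to 26.8 CPM in input_TH with a median of 22.6, and 59.2 to 96.7 CPM in input_SYN with a median of 74.2. It was 3.55-fold higher in SYN (1.83 ± 0.07, adjusted p = 3.3e-20), the largest rise of any carrier in the input, and 2.48-fold higher in the pellet (1.31 ± 0.09, adjusted p = 1.8e-12), in 12 of 12 mice each time. Its relatives went the other way. Slc25a27, or UCP4, ranged from 27.4 to 35.2 CPM in input_TH and from 6.32 to 12.7 CPM in input_SYN, 2.88-fold lower (−1.53 ± 0.07) and 2.79-fold lower in the pellet (−1.48 ± 0.08), lower in 12 of 12 mice in both. Slc25a30 was lower by 1.61-fold in the input and 1.30-fold in the pellet, and both calls ended without the GC and length trend. The UCP-like group held 1 gene higher and 2 lower in SYN in both fractions.

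Slc25a44 was higher in SYN in 12 of 12 mice in both fractions. It spanned 65.7 to 86.2 CPM in input_TH, median 78.1, and 158 to 208 CPM in input_SYN, median 178, which is 2.59-fold (1.37 ± 0.04, adjusted p = 1.1e-21). In the pellet it was 1.90-fold higher (0.92 ± 0.04, adjusted p = 5.3e-16). Among the other amino acid and carnitine carriers, the carnitine/acylcarnitine carrier Slc25a20 and the glycine carrier Slc25a38 were lower in the input by 1.43-fold and 1.40-fold and passed no test in the pellet, and the ornithine carrier Slc25a15 passed in the pellet and not in the input, at 1.34-fold higher. The peroxisomal Slc25a17 was 1.92-fold higher in the input and 1.35-fold higher in the pellet. In the pellet these last 2 genes lay below 0 with library size in place of TMM factors, at −0.13 and −0.12.

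**Figure D2:**
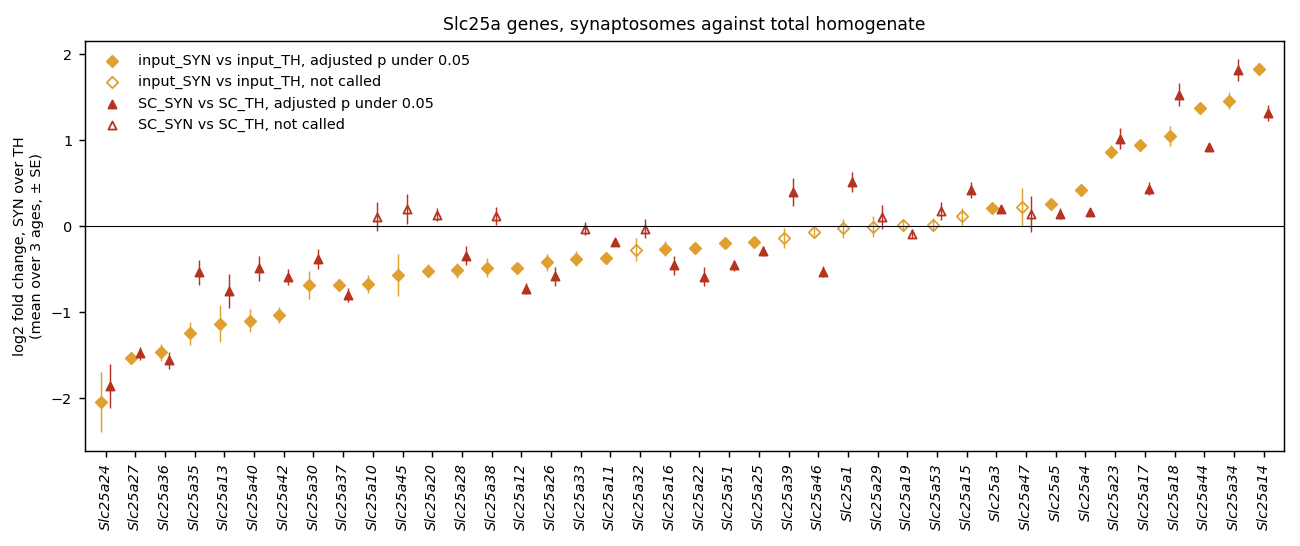
Log2 fold change of SYN over TH for 40 Slc25a genes in the input (diamonds) and in the ribosome pellet (triangles), mean over 3 ages with SE; filled symbols passed an adjusted p of 0.05. Slc25a14, Slc25a34, Slc25a44, Slc25a18 and Slc25a23 lie above 0.8 in both fractions, and Slc25a27 and Slc25a36 below −1.4. Slc25a24, lower still, has too few counts in SYN to pass the filter there.

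The glutamate, aspartate and malate carriers split. Of the 5 members of this group, 4 were lower and 1 higher in SYN in both fractions, and 1 of the 4, Slc25a13, was too low in SYN to pass the filter there. The member that was higher was Slc25a18, which spanned 19.5 to 29.1 CPM in input_TH (median 26.8) and 22.3 to 63.4 CPM in input_SYN (median 51.1). In the pellet it spanned 22.6 to 53.0 CPM in SC_TH (median 36.9) and 51.0 to 142 CPM in SC_SYN (median 118). The difference was 2.06-fold in the input (1.05 ± 0.12, adjusted p = 3.0e-09), higher in 10 of 12 mice, and 2.89-fold in the pellet (1.53 ± 0.13, adjusted p = 1.0e-10), higher in 12 of 12. Single libraries stood low for several carriers. Mouse 188 had the lowest Slc25a18, Slc25a34, Slc25a39 and Slc25a42 in SC_SYN, at 51.0, 8.09, 7.90 and 7.90 CPM, in a library of 6132944 counts, and mouse 197 the lowest Slc25a18 and Slc25a39 in input_SYN, at 22.3 and 10.8 CPM, in a library of 2843173 counts. Without either mouse Slc25a18 kept its call in both fractions. Slc25a22, the other glutamate carrier, was 1.19-fold lower in the input (−0.25 ± 0.07) and 1.5-fold lower in the pellet (−0.59 ± 0.11), lower in 12 of 12 mice in both. The ratio of Slc25a22 to Slc25a18 per length was 1.81 ± 0.136 (SD, n = 4) in input_TH at 3w, 1.76 ± 0.171 at 5m and 1.51 ± 0.0809 at 18m. It was 1.64, 1.54 and 1.16 in SC_TH, 0.889, 0.622 and 0.747 in input_SYN, and 0.368 ± 0.0607, 0.297 ± 0.0226 and 0.334 ± 0.0616 in SC_SYN at the same ages. The mean ratio was thus above 1 in both TH fractions and below 1 in both SYN fractions, although single mice of input_SYN reached 1.25 at 3w and 1.06 at 18m. The position of 1 rests on the length of all annotated exons, 5992 bases for Slc25a22 and 1911 for Slc25a18. The transcripts with the longest coding sequence have 2811 and 1911 bases, and that length would raise every ratio by the same factor. Only the lower ratio in SYN than in TH is independent of this choice. Slc25a12, an aspartate/glutamate carrier of the malate-aspartate shuttle, was 1.40-fold lower in the input, and the oxoglutarate/malate carrier Slc25a11 1.29-fold lower. The other aspartate/glutamate carrier, Slc25a13, had 1.05 to 3.15 CPM in input_TH (median 2.80) and 0.321 to 2.26 CPM in input_SYN (median 0.776), from 1 to 6 counts a library there, and was lower in 12 of 12 mice. As it entered the test only through TH, no fold is given for it.

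Markers of other cell types moved with these results. All 10 astrocyte markers were higher in SYN, with a median log2 fold change of 1.59 in the input and 1.34 in the pellet, and all 10 microglia markers, with medians of 1.49 and 1.47. Of 10 oligodendrocyte markers 6 were higher in the input and 8 in the pellet, whereas of 10 neuronal markers 5 were higher and 4 lower in the input, and 3 higher and 7 lower in the pellet. The part of these cell types in the rise of Slc25a18, Slc25a34, Slc25a14, Slc25a44 and Slc25a23 was not tested.

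The calcium-regulated ATP-Mg/phosphate carriers also split. Slc25a23 ranged from 202 to 281 CPM in input_TH (median 241) and from 253 to 508 CPM in input_SYN (median 407), 1.82-fold higher (0.87 ± 0.08, adjusted p = 3.8e-11), and was 2.02-fold higher in the pellet (1.02 ± 0.13), in 12 of 12 mice each. Its relative Slc25a24 was near the detection limit in SYN. It had 1.30 to 3.99 CPM in input_TH, from 15 to 51 counts a library, and 0 to 1.29 CPM in input_SYN, from 0 to 7 counts a library. In the pellet it had 0.531 to 2.34 CPM in SC_TH and 0 to 0.715 CPM in SC_SYN, from 0 to 9 counts a library. It was lower in SYN in 12 of 12 mice in both fractions, but it entered the test only through TH, and no fold is given for it. Slc25a25 was lower by 1.14-fold and 1.22-fold.

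The abundant carriers of ADP, ATP and phosphate differed little. Slc25a4 was 1.34-fold higher in SYN in the input and 1.12-fold in the pellet, Slc25a3 1.16-fold and 1.15-fold, and Slc25a5 1.19-fold and 1.11-fold. With library size in place of TMM factors each of these was lower in SYN, with log2 values of −0.18, −0.38 and −0.35 in the input and −0.39, −0.36 and −0.41 in the pellet, so no direction can be given for them. The call for Slc25a5 in the pellet (adjusted p = 0.048) was lost with the mouse as a block, and the gene was higher in 6 mice and lower in 6.

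Carriers of iron, glutathione, nucleotides and cofactors were mostly lower in synaptosomes. Of 9 cofactor, nucleotide and S-adenosylmethionine carriers, 6 were lower and 1 higher in the input, and 5 lower and 1 higher in the pellet. Slc25a36, a pyrimidine nucleotide carrier, had the largest fall of them, from 34.4 to 55.0 CPM in input_TH (median 49.8) down to 9.74 to 27.1 CPM in input_SYN (median 16.6), 2.76-fold (−1.47 ± 0.10, adjusted p = 8.8e-14) and 2.95-fold in the pellet (−1.56 ± 0.10). The coenzyme A carrier Slc25a42 was 2.04-fold and 1.5-fold lower, and the S-adenosylmethionine carrier Slc25a26 1.34-fold and 1.5-fold lower. Of the 4 iron and glutathione carriers, the iron carriers Slc25a37 and Slc25a28 were 1.60-fold and 1.43-fold lower in the input, and Slc25a40 2.14-fold lower, a call that ended without the GC and length trend. Slc25a39, which imports glutathione, was 1.32-fold higher in the pellet (0.40 ± 0.17, adjusted p = 0.032), in 8 of 12 mice, went below 0 with library size (−0.16) and lost its call without the GC and length trend. All 5 erythroid markers were lower in SYN, with medians of −3.27 in the input and −3.28 in the pellet, and 10 and 9 of 10 endothelial markers, with medians of −3.65 and −2.65. Some of these, Cldn5 and Alas2 among them, had too few counts to be tested within input_SYN or SC_SYN. Markers that passed the filter only through TH could hardly fail to differ. The part of these markers in the lower levels of Slc25a37, Slc25a24 and the other carriers was not tested. All 5 nuclear RNAs, Malat1 among them, were lower as well, with medians of −3.29 and −2.79.

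Some of these falls depended on a trend over GC content and length, and the parts of GC and of length were not separated. Once a trend over GC content and length had been removed, Slc25a40 and Slc25a46 in the pellet and Slc25a16 in the input lay above 0, at 0.12, 0.017 and 0.26, from −0.49, −0.53 and −0.26. Their longest transcripts have 39.4%, 40.8% and 43.4% GC, and their exons hold 8386, 5425 and 4799 bases. Slc25a36 has 40.7% GC and 9594 exonic bases. Its calls between the compartments passed under every alternative tried, as did those of Slc25a34, Slc25a14, Slc25a18, Slc25a44, Slc25a23 and Slc25a27.

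**Figure D3:**
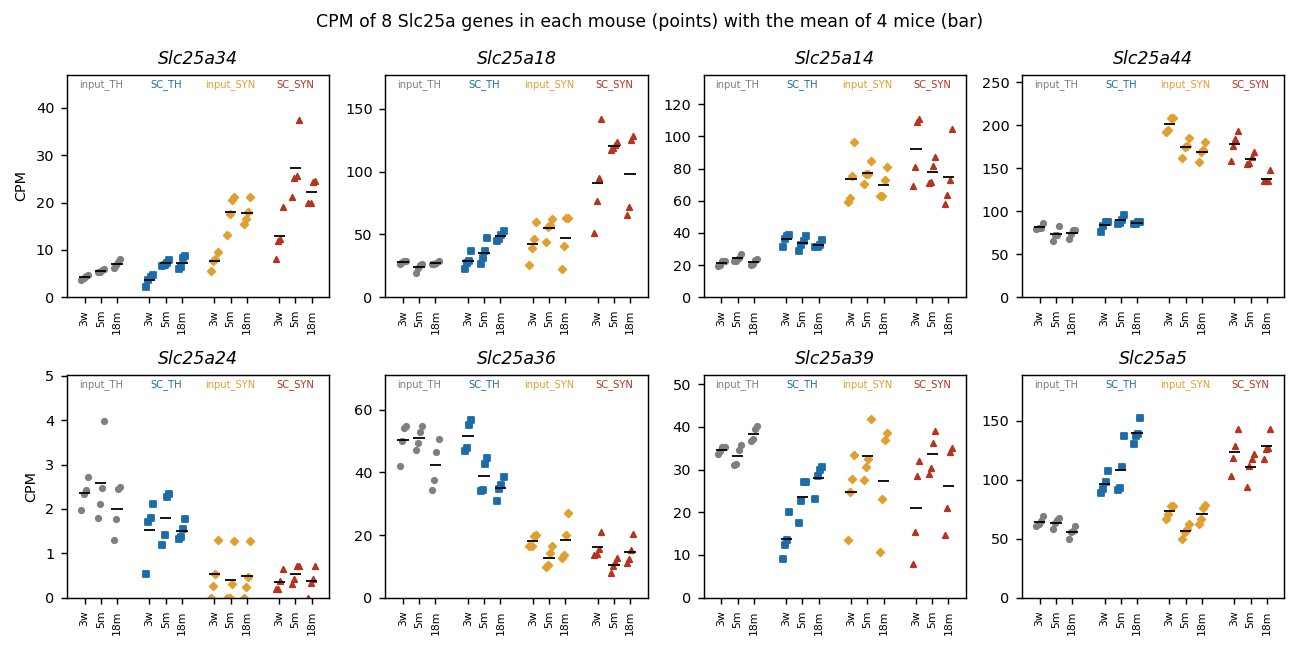
CPM of 8 Slc25a genes in each of the 48 libraries, by fraction and age, with points for single mice and bars for means of 4 mice; each axis starts at 0. Slc25a34 lies higher at 5m and 18m than at 3w in both SYN fractions, from 5.54 to 9.51 CPM at 3w to 13.1 to 21.3 CPM later in input_SYN, and Slc25a24 is near 0 in SYN.

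The second comparison set the ribosome pellet against the input of the same compartment, a ratio often read as translational efficiency, TE. In TH, 32 of 40 carriers differed, 12 higher and 20 lower in the pellet, against 75.8% of all 18416 genes (35.6% higher and 40.2% lower). In SYN, 14 of 37 differed, 7 higher and 7 lower, against 43.2% of 14301 genes (21.8% and 21.5%). Both shares are near the background. Without the GC and length trend the carriers in TH split into 16 higher and 14 lower, and all genes turned alike, from 6555 higher and 7397 lower to 7678 and 6325. The carriers of ADP, ATP and phosphate were higher in the pellet in both compartments, and this held for each of the 3 tested genes in 12 of 12 mice. Slc25a5 was 1.97-fold higher in TH (0.98 ± 0.05, adjusted p = 5.4e-16) and 1.76-fold in SYN (0.82 ± 0.07, adjusted p = 9.8e-10). It spanned 50.1 to 69.0 CPM in input_TH and 89.2 to 152 CPM in SC_TH, and 49.7 to 78.8 CPM in input_SYN and 93.8 to 143 CPM in SC_SYN, with no overlap in either. Slc25a4 was 1.70-fold and 1.37-fold higher, and Slc25a3 1.47-fold and 1.40-fold.

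Of the 5 shuttle carriers 4 were higher in the TH pellet, and Slc25a18 and Slc25a11 were higher in the SYN pellet. Slc25a18 stood out in SYN at 2.04-fold (1.03 ± 0.16, adjusted p = 1.8e-05), higher in 12 of 12 mice, and was 1.49-fold higher in TH. Slc25a12 and Slc25a22 were 1.35-fold and 1.25-fold higher in TH. Of the enzymes of the same shuttle, which pass aspartate and malate on, 4 of 4 were higher in the TH pellet and 3 of 4 in the SYN pellet. The shares over all genes were 35.6% and 21.8%. Mdh1 was 0.57 ± 0.07 and 0.75 ± 0.08 higher on the log2 scale, and Got1 0.71 ± 0.04 and 0.43 ± 0.07. Of the 10 astrocyte markers 9 were higher in the TH pellet and 7 in the SYN pellet, and of the 10 neuronal markers 9 and 2.

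At the other end, each of the 4 iron and glutathione carriers was lower in the TH pellet, by 1.30-fold for Slc25a28, 1.40-fold for Slc25a37, 1.5-fold for Slc25a40 and 1.57-fold for Slc25a39. The iron carrier Slc25a37 was also lower in the SYN pellet, by 1.57-fold (−0.65 ± 0.10, adjusted p = 1.2e-05), in 11 of 12 mice. The dicarboxylate carrier Slc25a10 was 1.61-fold lower and the carnitine carrier Slc25a20 1.47-fold lower in the TH pellet, and Slc25a35, whose exons overlap Rangrf, 1.87-fold. Slc25a23 was lower in both pellets, by 1.46-fold in TH (12 of 12 mice) and 1.36-fold in SYN (11 of 12 mice). The NAD carrier Slc25a51 was 1.14-fold and 1.42-fold lower.

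Whether the ratio differs between compartments was tested directly over all 48 libraries. It differed for 19 of 40 carriers, 11 higher and 8 lower in SYN, against 43.5% of 18112 genes (18.7% higher and 24.8% lower). This split turned to 6 higher and 13 lower without the GC and length trend, where all genes split into 2707 higher and 5913 lower in place of 3387 and 4495, and their median moved from 0.0064 to −0.10. It was 14 higher and 7 lower with library size in place of TMM factors, where all genes split into 4182 higher and 3761 lower. Among the 11 higher in the main fit, Slc25a35 and Slc25a45 had too few counts in input_SYN to pass the filter there, so their ratio in SYN rests on few counts. Slc25a14 was 1.61-fold higher in the pellet of TH (0.68 ± 0.05) and did not pass in SYN, and the ratio was 1.46-fold lower in SYN than in TH (−0.55 ± 0.12, adjusted p = 0.00023). Slc25a44 was 1.2-fold higher in the pellet of TH and 1.18-fold lower in that of SYN, with a difference of −0.48 ± 0.06 (adjusted p = 1.5e-08), and the peroxisomal Slc25a17 differed by −0.54 ± 0.10. Each of these 3 genes was also higher in input_SYN than in input_TH. That difference enters the tested ratio with the opposite sign, so it is not a separate observation. In the other direction, the ratio was higher in SYN for Slc25a10 by 0.77 ± 0.20, Slc25a20 by 0.62 ± 0.10, Slc25a38 by 0.58 ± 0.15 and Slc25a18 by 0.46 ± 0.19 (adjusted p = 0.042). The last value lost its call without mouse 187, 190, 192, 193, 194 or 197 and without the GC and length trend, with log2 values from 0.35 to 0.57 over the alternatives. Slc25a10, Slc25a20 and Slc25a38 were lower in input_SYN than in input_TH, so their higher ratios are not separate observations either. Slc25a18 was higher there. Of the 5 nuclear RNAs 3 had a higher ratio in SYN, as did 8 of 10 endothelial markers, a list with few counts in SYN. Of the 10 neuronal markers 9 had a lower ratio. The part of these RNAs in these differences was not tested.

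**Figure D4:**
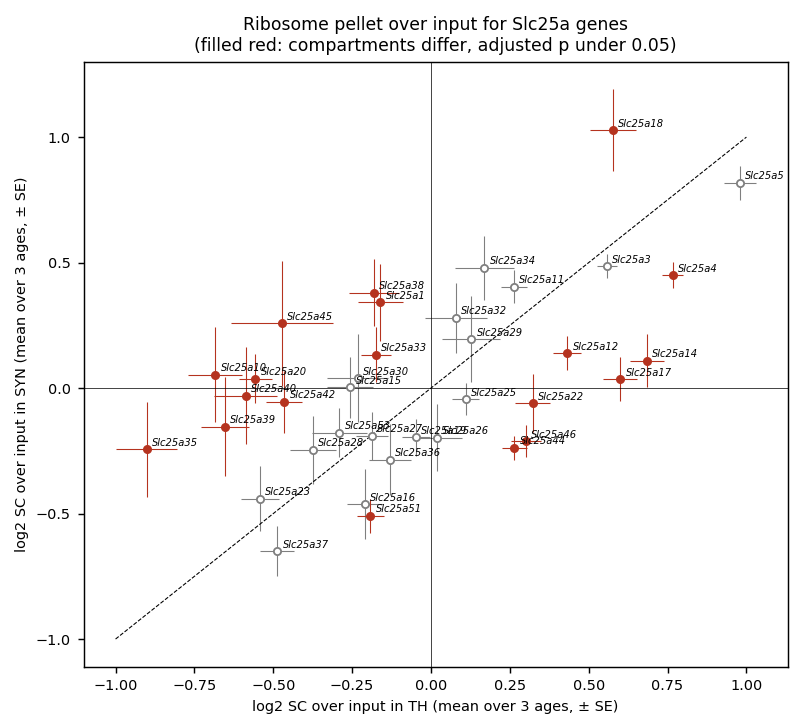
Log2 ratio of ribosome pellet over input in TH (horizontal axis) and SYN (vertical axis) for 37 Slc25a genes, mean over 3 ages with SE; the dashed line marks equal ratios and filled red points differ between compartments at an adjusted p of 0.05. Slc25a5 and Slc25a18 lie at the upper right, with log2 ratios of 0.98 and 0.58 in TH and 0.82 and 1.03 in SYN.

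The third comparison asked how the carriers change with age inside each fraction. Between 3w and 5m, 5 of 41 carriers passed in input_TH, 5 of 40 in SC_TH, 1 of 35 in input_SYN and 2 of 38 in SC_SYN, against 11.8%, 17.9%, 3.22% and 8.05% of all genes. Between 5m and 18m the counts were 3 of 41, 0 of 40, 0 of 35 and 0 of 38, against 15.5%, 2.17%, 0.139% and 0.0140%, by the same edgeR test. Where none passed, 7, 2 and 3 carriers had an unadjusted p under 0.05, and DESeq2 called 1 carrier in SC_TH and none in both SYN fractions. No share of carriers exceeded that of all genes by more than 1 percentage point.

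Slc25a34 was the only carrier that passed from 3w to 5m in each of the 4 fractions. In input_SYN it rose 2.27-fold (1.18 ± 0.21, adjusted p = 0.0035), in SC_SYN 2.08-fold (1.06 ± 0.23, adjusted p = 0.013) and in SC_TH 1.90-fold (0.92 ± 0.21, adjusted p = 0.0064). The 4 mice at 5m lay above the 4 at 3w in each of these fractions, as the values given above show. Leaving out any single mouse, or any other setting, did not end these 3 calls. The rise in input_TH was 1.32-fold (0.40 ± 0.13, adjusted p = 0.050) and passed in only 2 of 15 alternatives, and it was lost without any single mouse of the 8. From 5m to 18m the differences in SC_TH, input_SYN and SC_SYN were 0.04 ± 0.16, −0.04 ± 0.18 and −0.29 ± 0.22 and did not pass, and that in input_TH was 0.37 ± 0.12 (adjusted p = 0.047), again in 2 of 15 alternatives. Whether the rise to 5m was larger in SYN than in TH was tested and not shown, with differences of 0.80 ± 0.25 in the input (adjusted p = 0.44) and 0.16 ± 0.34 in the pellet (adjusted p = 0.96). Beside it, 5 of 10 microglia markers rose from 3w to 5m in input_SYN and 7 in SC_SYN, with medians of 0.61 and 0.76, and their part in the rise was not tested. Depth of the SC_SYN libraries rose at the same step, as given above, and its part was not tested either. Of the 10 astrocyte markers none rose and 1 fell in input_SYN, and 1 rose in SC_SYN, with medians of −0.040 and 0.019. Oligodendrocyte markers fell in every fraction, 9 of 10 in input_SYN, SC_SYN and SC_TH and 10 of 10 in input_TH.

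The other carriers that passed with age did so in single fractions. In SC_TH from 3w to 5m, the glutathione carrier Slc25a39 rose 1.66-fold (0.73 ± 0.19, adjusted p = 0.013) from 9.05, 12.4, 13.5 and 20.0 CPM to 17.5, 22.6, 27.0 and 27.1 CPM, and the highest mouse at 3w lay above the lowest at 5m. The iron carrier Slc25a28 rose 1.43-fold and Slc25a25 1.25-fold, and Slc25a36 fell by 0.43 ± 0.12 on the log2 scale. The call for Slc25a39 was lost without mouse 187 or 188, that for Slc25a36 without mouse 188, 191 or 194, and that for Slc25a28 without mouse 187, 188, 190, 191 or 193. Those for Slc25a39 and Slc25a36 were also lost in the fit over all 48 libraries, and those for Slc25a36 and Slc25a28 without the GC and length trend. In the same libraries the summed level of the 5 nuclear RNAs went from 9879 to 12960 CPM at 3w down to 7041 to 10170 CPM at 5m and 5044 to 5975 CPM at 18m, and depth rose as given above. Their part in these age differences was not tested. Of the 4 enzymes of the malate-aspartate shuttle, 3 rose in SC_TH from 3w to 5m (Mdh2 by 0.54 ± 0.15).

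In input_TH from 3w to 5m, the aspartate/glutamate carrier Slc25a13 rose 1.85-fold (0.89 ± 0.19, adjusted p = 0.0058), from 1.05, 1.34, 1.62 and 2.09 CPM to 2.79, 2.81, 2.82 and 3.15 CPM, without overlap and under every alternative. The glutamate carrier Slc25a22 fell by 0.30 ± 0.06 and the citrate carrier Slc25a1 by 0.36 ± 0.08, both in all alternatives but the fit over all 48 libraries, and Slc25a53 fell by 0.37 ± 0.11, a call that ended without mouse 187, 190, 191, 192 or 194, in the fit over all 48 libraries and with library size in place of TMM factors. From 5m to 18m, Slc25a4 rose by 0.20 ± 0.05 and Slc25a39 by 0.24 ± 0.07 in input_TH. The first lost its call without mouse 192 or 196 and the second without mouse 193, 194, 196 or 198, and both lost it with library size in place of TMM factors, without the GC and length trend and in the fit over all 48 libraries. With library size 2 other carriers were called at this step, both lower, while Slc25a4 and Slc25a39 stayed above 0 without a call. Over all genes that scaling called 996 higher and 2063 lower in place of 1479 and 1329. In SC_SYN from 3w to 5m, the coenzyme A carrier Slc25a42 rose 1.65-fold (0.72 ± 0.19, adjusted p = 0.030), from 7.90, 11.4, 12.5 and 15.2 CPM to 17.4, 18.9, 20.1 and 22.8 CPM, without overlap, although the call ended without mouse 188, 189, 191, 192 or 194. Library depth in SC_SYN also rose at this step without overlap, and its part was not tested.

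**Figure D5:**
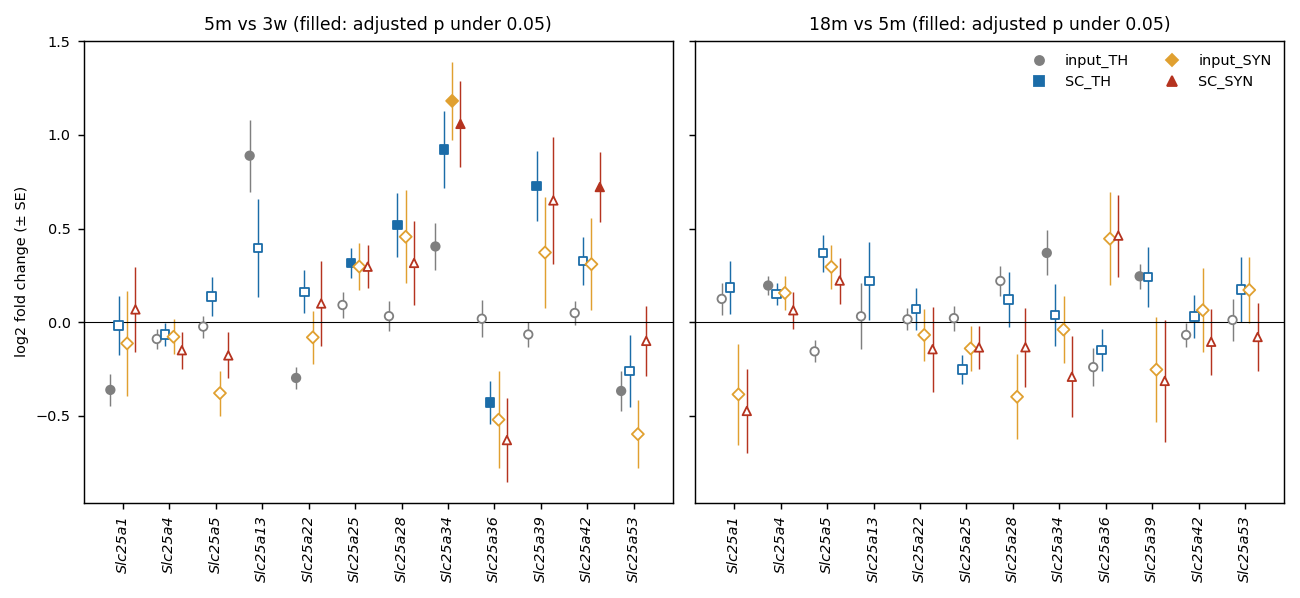
Log2 fold change with age (SE) in the 4 fractions for the Slc25a genes named in the age comparisons or in their ratio tests, from 3w to 5m on the left and from 5m to 18m on the right; filled symbols passed an adjusted p of 0.05, and a gene not tested in a fraction has no symbol there. Slc25a34 is filled in all 4 fractions on the left, between 0.40 and 1.18.

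A change with age in the ratio of pellet to input was tested as an interaction. In SYN no carrier of 37 passed from 3w to 5m or from 5m to 18m by edgeR, where 0% of all genes passed, none had an unadjusted p under 0.05, and DESeq2 called none. In TH, 1 of 40 passed at each step, against 2.33% and 1.78% of genes. From 3w to 5m it was Slc25a39, whose ratio rose by 0.77 ± 0.20 (adjusted p = 0.036), and 2 carriers passed with the mouse as a block. From 5m to 18m it was the ADP/ATP carrier Slc25a5, whose ratio rose by 0.52 ± 0.12 (adjusted p = 0.025). Its CPM in SC_TH were 91.3, 93.2, 111 and 137 at 5m and 130, 137, 139 and 152 at 18m, and in input_TH 58.5, 63.3, 65.5 and 67.3 against 50.1, 56.0, 56.4 and 60.4. The pellet values overlap between the ages through the highest mouse at 5m, and the input values through the highest at 18m. The call for Slc25a39 was lost without mouse 187, 188, 190, 191, 193 or 194, and that for Slc25a5 without mouse 192, 193, 194, 196, 197 or 198, with log2 values of 0.45 to 0.65 over the alternatives. Both calls were lost in the fit over all 48 libraries, and that for Slc25a39 also without the GC and length trend. Nuclear RNAs had a lower ratio at the same steps, 1 of 5 and then 3 of 5, and their part was not tested. No carrier's age change differed between SYN and TH, in the input or the pellet, at either step by edgeR, where 0.0224% and 2.42% of genes passed in the input and 0.0301% and 0% in the pellet. In those 4 tests 5, 5, 1 and 5 carriers had an unadjusted p under 0.05, and DESeq2 called 1, in the input from 5m to 18m.

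RNAs that encode proteins working with the carriers were followed in the same tests. The outer membrane channels Vdac1, Vdac2 and Vdac3, through which metabolites reach the carriers, were 3 of 3 lower in SYN in both fractions, by 0.17 ± 0.04, 0.26 ± 0.06 and 0.33 ± 0.05 on the log2 scale in the input, and 3 of 3 higher in the pellet of both compartments. Of the shuttle enzymes, 3 of 4 were lower in SYN in both fractions. Of 13 genes of the import path of carrier proteins, 6 were higher and 3 lower in input_SYN, and 6 higher and 6 lower in SC_SYN. Tomm20, an import receptor, was 1.13 ± 0.06 higher in the input and 0.49 ± 0.07 in the pellet, and the chaperone Timm9 fell by 1.04 ± 0.11 and 0.82 ± 0.15. The ratio of pellet to input was lower in SYN than in TH for 8 of these 13 and higher for none. Of 13 other inner membrane carriers and transporters, 7 were higher and 5 lower in input_SYN, led by Sfxn5 at 1.84 ± 0.04, while Sfxn2 fell by 1.91 ± 0.20. Of 8 tested genes of calcium uptake, 4 were higher and 3 lower in input_SYN, where Letm1 was 1.03 ± 0.04 higher and Micu3 fell by 0.91 ± 0.06. The scale of SYN against TH matters here too. Over all genes the median log2 fold change in the input was −0.17 with TMM factors and −0.77 with library size. In the pellet it was −0.080 and −0.63. These lists were not followed under that scaling, so differences as small as those of the Vdac genes, or of Tomm20 in the pellet, rest on it. The lists were chosen with earlier results of the data known, and are given as counts beside the background stated above.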

How the data were processed

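Total and ribosome-associated RNA of mouse cortex was sequenced in 48 libraries of 12 mice. The deposited values are raw read counts per gene: the authors made rRNA-depleted directional libraries, sequenced them on 2 NovaSeq runs that the labels do not assign to libraries, aligned with TopHat2 2.1 to GRCm38 (Ensembl release 85) and counted with featureCounts, strand ignored. Base calling used bcl2fastq 2.20.0.422. Adaptors carried molecular identifiers, and whether they were used is not given in the sources used here.

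Gene identities came from GENCODE M21, which holds 48144 of the 48526 identifiers; the rest held 0.0596% of counts. Libraries were grouped by their labels. All tests were edgeR 4.0.16 quasi-likelihood fits (R 4.3.3) with TMM factors and filterByExpr, over every gene that passed in the libraries of the comparison, and genes were called at an adjusted p (Benjamini-Hochberg) under 0.05. Age was tested within a fraction over its 12 libraries. Compartments and pellet against input were tested as the mean over ages of 24 libraries without a mouse term, and the ratio between compartments over all 48. CPM and RPKM (CPM per kilobase of exon, GENCODE) used TMM factors over all libraries. Intervals are standard errors of log2 fold changes; spreads between 4 mice include technical error. Totals ranged from 1780267 to 18590040 counts, and p-values for genes with few counts are limited by depth. Same-group libraries differed beyond sampling noise in each of 72 pairs, so none was a duplicate.

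The members and lists were chosen with earlier results of these data known. Genes named were 27 core carriers, in each comparison up to 5 called carriers per direction with the largest change whose higher group averaged 50 counts or more, and every called carrier where 5 or fewer passed; other genes came from fixed lists. Alternatives were scaling by library size, DESeq2 1.42.0, keeping low counts, leaving out mitochondrially encoded genes, removal of a GC and length trend (a loess curve with a span of 0.5 per library), all 48 libraries or only the compared groups in a fit, the mouse as a block, and leaving out each mouse. Fractions with the same number come from the same animal, which pairs them; their deviations from group means correlated with medians of −0.0101 to 0.109 over 12 mice. The fits were checked on simulated data. Signature motifs were read from GENCODE coding sequences on GRCm38.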

Additional observations from a re-analysis of the deposited data

Results flagged for a closer look

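The ratio of ribosome pellet to input differed between compartments, by the test of the difference itself, for 19 carriers. Log2 differences, SYN over TH, were above 0 for Slc25a10 (0.77), Slc25a45 (0.75), Slc25a35 (0.68), Slc25a20 (0.62), Slc25a38 (0.58), Slc25a40 (0.58), Slc25a1 (0.52), Slc25a39 (0.52), Slc25a18 (0.46), Slc25a42 (0.43) and Slc25a33 (0.33), of which Slc25a35 and Slc25a45 had too few counts in input_SYN to pass the filter there. They were below 0 for Slc25a14 (−0.55), Slc25a17 (−0.54), Slc25a46 (−0.49), Slc25a44 (−0.48), Slc25a22 (−0.36), Slc25a4 (−0.29), Slc25a51 (−0.29) and Slc25a12 (−0.27). In TH the ratio changed with age for Slc25a39 (0.77, 3w to 5m) and Slc25a5 (0.52, 5m to 18m).

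Single mice stood apart from the other 3 of their group in 3 of 132 groups of 4 libraries examined for 11 genes, where chance gives about 1 in 20. Slc25a3 was 204 CPM in mouse 191 of input_TH at 5m against 214 to 215 CPM (gap of 0.872 of the group's range). Slc25a44 was 86.2 CPM in mouse 190 of input_TH at 3w against 79.9 to 80.5 CPM (gap 0.900), and 147 CPM in mouse 196 of SC_SYN at 18m against 135 CPM (gap 0.957).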

How the results depend on the processing

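Of 144 carrier calls in 21 comparisons, 92 passed in the same direction under every alternative run. Another 13 changed sign under 1 alternative. With library size in place of TMM factors, the log2 values of SYN over TH turned to −0.41 for Slc25a5, −0.36 for Slc25a3, −0.13 for Slc25a15, −0.39 for Slc25a4, −0.16 for Slc25a39, −0.12 for Slc25a17 and −0.043 for Slc25a1 in the pellet, and to −0.35 for Slc25a5, −0.38 for Slc25a3 and −0.18 for Slc25a4 in the input. This follows from a median over all genes that lies at −0.63 and −0.77 under that scaling. Without the GC and length trend they turned to 0.12 for Slc25a40 and 0.017 for Slc25a46 in the pellet and 0.26 for Slc25a16 in the input.

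Counts of called carriers that moved by over 1.5 times were all small. In the fit over all 48 libraries they were 1 for input_TH from 3w to 5m, 0 for input_TH from 5m to 18m, 3 for SC_TH and 4 for SC_SYN from 3w to 5m, 1 for SC_TH and SC_SYN from 5m to 18m, and 0 for the change of the ratio in TH at both steps. With only the groups compared, input_TH from 5m to 18m gave 1. Without a filter, SC_TH gave 9 and 3 at its 2 steps and the ratio in TH from 3w to 5m gave 4. DESeq2 gave 1 for SC_TH from 5m to 18m and for the input age change of SYN against TH from 5m to 18m, and 2 for the ratio in TH at each step, and library size gave 1 for that input age change. Without the GC and length trend SC_TH from 5m to 18m gave 1 and the ratio in TH from 3w to 5m gave 0, and without mitochondrially encoded genes the latter gave 2. With the mouse as a replicate block it also gave 2, and the block otherwise ended the call for Slc25a5 in SC_SYN against SC_TH and no other call. No paired analysis was possible because the ages hold different mice, for age within a fraction. The cause of these shifts was not tested.

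Leaving out each mouse in turn gave 3 to 6 called carriers for input_TH from 3w to 5m, lowest without 187, 190, 191 or 194, and 0 to 4 from 5m to 18m, with 0 without 196 and 1 without 194 or 198. SC_TH gave 2 to 9 from 3w to 5m, with 2 without 188, 3 without 187 or 191, 8 without 189 and 9 without 192, and 0 to 3 from 5m to 18m, with 3 without 191. SC_SYN gave 1 to 2 from 3w to 5m. The ratio in TH gave 0 to 4 from 3w to 5m, with 4 without 189 or 192, and 0 to 2 from 5m to 18m, with 2 without 191 or 195. The input age change of SYN against TH from 5m to 18m gave 0 to 1, with 1 without 195. SC_SYN against SC_TH kept 28 to 30, input_SYN against input_TH 30 to 32, SC_TH against input_TH 29 to 33, SC_SYN against input_SYN 12 to 15 and the difference of the ratios 15 to 19. Depth limits genes with few counts in SYN, such as Slc25a24 with 0 to 7 counts a library in input_SYN.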
